A study of Oryza sativa Japonica Group with 22 samples.

Results

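Starch synthesis in the filling rice grain was followed through 10 genes of the endosperm in milkripe seeds of 6 rice lines. The genes were chosen by identifier for the enzymes that build the starch granule, by no rule on their measured values but with earlier results of these data known. All 10 were among the 38866 genes of the count tables and among the 26821 genes with enough reads to be tested. They are the large and small subunits of ADP-glucose pyrophosphorylase AGPL2 (Os01g0633100) and AGPS2 (Os08g0345800), granule-bound starch synthase GBSSI (Os06g0133000), the soluble starch synthases SSI (Os06g0160700), SSIIa (Os06g0229800) and SSIIIa (Os08g0191433), the branching enzymes BEI (Os06g0726400) and BEIIb (Os02g0528200), and the debranching enzymes isoamylase ISA1 (Os08g0520900) and pullulanase PUL (Os04g0164900). The count tables hold identifiers only. Names are those of the list that chose the genes, and no gene length, position or sequence was used here, so levels are compared between lines within a gene and never between genes.

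Starch is the main carbon store of the rice grain. ADP-glucose pyrophosphorylase makes ADP-glucose, the glucosyl donor, and in the cereal endosperm most of this activity lies in the cytosol. Starch synthases add the glucose to growing chains, with GBSSI making the nearly linear amylose and the soluble synthases extending the chains of amylopectin. Branching enzymes cut and rejoin chains to set the branch points, and isoamylase and pullulanase remove misplaced branches so that amylopectin can pack into a granule. Loss of GBSSI gives glutinous rice, and loss of ISA1 gives sugary grains that hold phytoglycogen.

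The seeds were harvested 10 days after flowering, each library from 1 panicle of an individual plant, and total RNA was sequenced after depletion of rRNA. Taipei (n = 4) is the untransformed japonica parent of all other lines. SSA (n = 3) carries HaSSA, a sunflower albumin gene rich in methionine codons, with an ER retention signal and a wheat glutenin promoter. CGS (n = 5) carries AtD-CGS, a feedback-desensitised Arabidopsis cystathionine gamma-synthase, and SAT (n = 3) carries EcSAT, the serine acetyltransferase gene cysE of E. coli, both with a plastid-targeting peptide and a maize ubiquitin promoter. CGSxSSA (n = 4) and SATxSSA (n = 3) come from crosses of CGS and SAT plants with SSA as pollen donor, and each combines 2 segregants of its cross. SSA, CGS and SAT are 1 transformed line each, so the effect of a transgene and that of its insertion or line cannot be told apart.

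The libraries held between 29642343 and 41585957 reads counted in genes. Reads unmapped to the rice genome made up 2.87% to 8.07% in the 3 lines with HaSSA and 0.63% to 0.92% in the other 3 lines, and the transgenes are not in the tables. SATxSSA replicate 1 stood apart, with 20.3% of its reads in no gene against 11.8% to 14.9% in the others, and results on that line are also given without it. A list of 7 identifiers for endosperm storage proteins summed to 28853 to 168879 CPM over the 22 libraries, none of them at 0. CPM here are counts scaled to a common library total and for RNA composition by TMM (trimmed mean of M-values). The lists of 5 embryo and aleurone identifiers and 5 green tissue identifiers summed to 3155 to 7673 CPM and 3184 to 5791 CPM, with none at 0. These lists, like that of the other starch genes below, were written from general knowledge and could not be checked against an annotation, and only whole-list values are given.

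All 10 genes were deeply covered, with between 13605 and 313227 reads of each gene in a library. Levels are given in CPM on the same TMM scale. Counting error was therefore small beside the spread between libraries of a line, which averaged a coefficient of variation of 8.17% for BEI to 15.5% for GBSSI. Together the 10 genes took 2.40% to 3.06% of the counts of a library. Reads on the opposite strand were 0.0514% (AGPS2) to 0.173% (ISA1) of a gene's reads, against a median of 0.474% over the genes tested and 13.6% over all genes summed.

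Between lines, the mean level of a gene differed by a factor of 1.22 for SSIIa to 1.92 for SSIIIa from the lowest to the highest line. On the TMM scale, Taipei was the highest line for 5 genes, SAT for 4 and CGSxSSA for 1, and the lowest was SATxSSA for 6 and SSA for 4. By library size alone this order was different, with CGSxSSA highest for 4 genes, Taipei, SSA and SAT for 2 each, and the lowest line SATxSSA for 4, CGS for 3, SAT for 2 and Taipei for 1. Of the 50 pairs of neighbouring lines in the order of means on the TMM scale, 49 had overlapping libraries. The exception was SSIIIa, where every SAT library lay above every Taipei library.

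**Figure D1:**
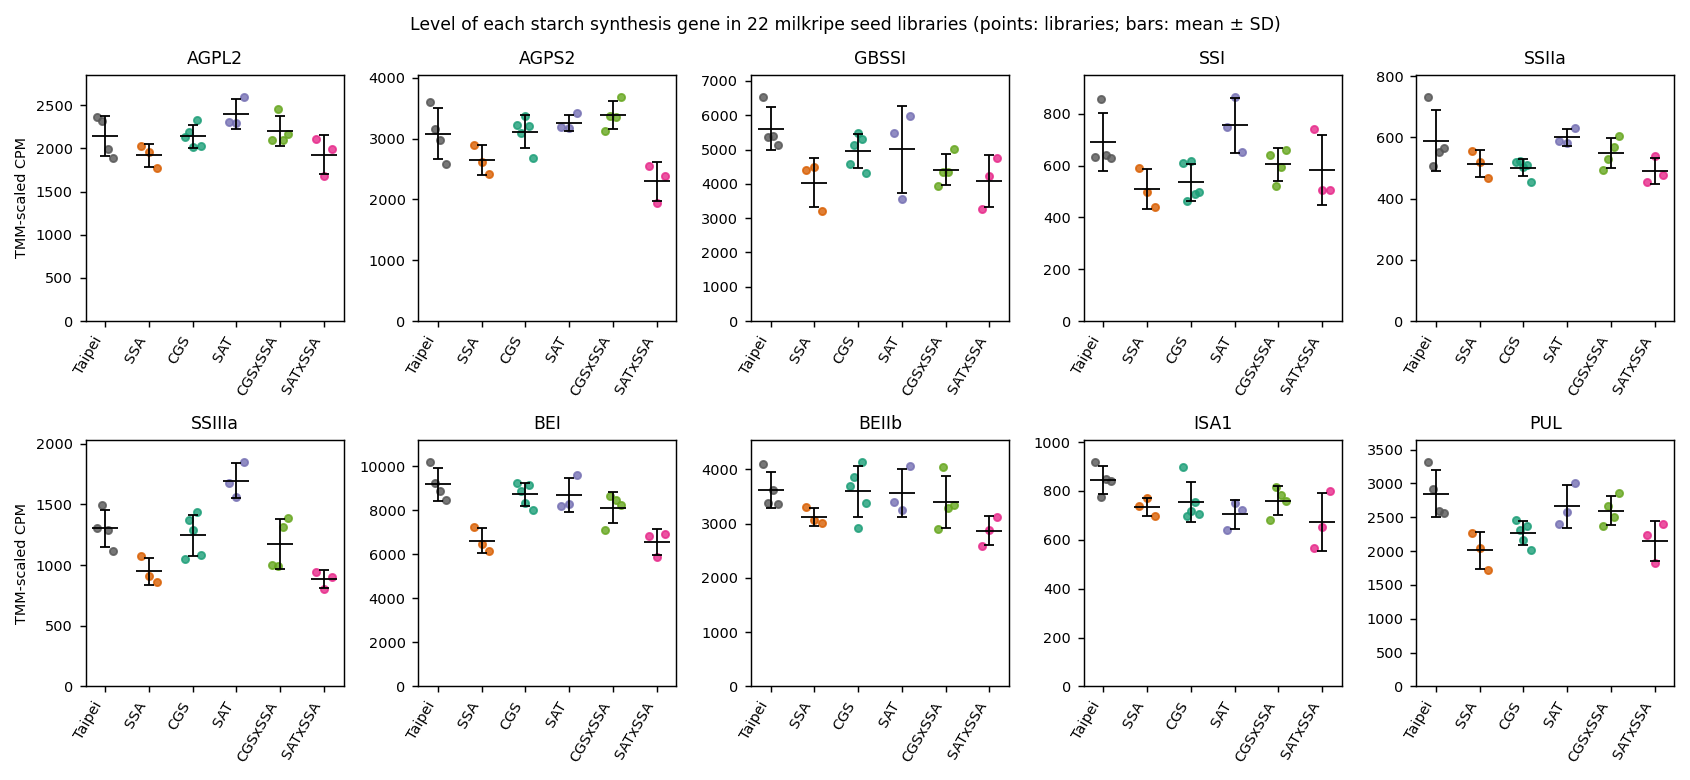
TMM-scaled CPM (linear axis from 0) of each of the 10 genes in the 22 libraries, by line; points are libraries and black bars the mean ± SD of a line. SSIIIa has its 3 SAT libraries between 1561 and 1848 CPM and its 3 SATxSSA libraries between 800.1 and 946 CPM, while in most panels neighbouring lines overlap; by library size alone the order of lines differs.

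No gene of the 10 passed the test in any transgenic line against Taipei at an adjusted p under 0.01 (edgeR's quasi-likelihood test, Benjamini-Hochberg over all genes). The share of all genes that passed was 2.46% in SSA (0.63% lower and 1.83% higher), 3.69% in CGS (1.36% lower and 2.34% higher), 0.69% in SAT (0.302% lower and 0.388% higher), 1.08% in CGSxSSA (0.287% lower and 0.798% higher) and 1.22% in SATxSSA (0.436% lower and 0.779% higher). At an unadjusted p under 0.05, 5 of the 10 were lower in SSA, where 9.02% of all genes were, and 8 were lower in SATxSSA, where 10.6% of all genes were. The count was 3 lower in CGS (10.8% of all genes), 1 lower (8.17%) and 1 higher (8.37%) in SAT, and 1 lower in CGSxSSA (4.7%). None of the 10 was higher at that p in SSA, CGS, CGSxSSA or SATxSSA, where 10.4%, 13.3%, 5.36% and 10.1% of all genes were. DESeq2 at the same threshold of 0.01 called BEI and PUL lower in SSA, where it called 1.44% of all genes lower, and BEI, SSIIIa and AGPS2 lower in SATxSSA (1.77%). It called none of the 10 in CGS, SAT and CGSxSSA, where it called 6.24%, 2.09% and 1.69% of all genes.

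In both SSA and SATxSSA all 10 estimates lay below 0 against Taipei, as they did for 49.9% and 49.5% of all genes. Their medians were −0.33 and −0.37 on the log2 scale, with single genes from −0.50 to −0.16 in SSA and from −0.56 to −0.15 in SATxSSA. The medians in CGS, SAT and CGSxSSA were −0.12, 0.0021 and −0.14, with 9, 5 and 8 estimates below 0, and the median of all genes was between 0.0006 and 0.0089 in each of these 5 comparisons. Every SSA library lay below every Taipei library for 7 of the 10 genes, where 10% of all genes did, and every SATxSSA library did for 6 (9.56%). No gene of the 10 had every library above Taipei in SSA, CGS, CGSxSSA or SATxSSA, where 11.1%, 6.07%, 3.51% and 8.68% of all genes did. These comparisons share the 4 Taipei libraries, so they are not independent of each other. The embryo and aleurone list was also below Taipei in SATxSSA, at 3155 to 4477 CPM against 4503 to 6559 CPM, with a median of −0.53. There 0 of 5 were called and 3 were lower at an unadjusted p under 0.05. In SSA this list overlapped with Taipei, at 4073 to 5845 CPM. Its median there was −0.29 with 5 of 5 estimates below 0, and 0 were called or lower at that p. Its part in either result was not tested. In bulk seed RNA, a smaller share of endosperm cells and less RNA of a gene per cell cannot be told apart.

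How many of the 10 estimates lay below 0 in the lines with HaSSA depended on the scaling, least in SATxSSA. The 10 genes summed to 27141 to 33674 CPM in Taipei, 20758 to 25095 CPM in SSA and 20942 to 24291 CPM in SATxSSA, without overlap, when scaled by TMM. As an unscaled share of the counts in genes they took 2.695% to 3.01% in Taipei, 2.40% to 2.71% in SSA and 2.40% to 2.57% in SATxSSA, so that SSA overlapped with Taipei and SATxSSA did not. With library size alone, 5 of the 10 estimates in SSA and 9 in SATxSSA lay below 0, with medians of −0.08 and −0.15. In CGSxSSA the count went from 8 to 5 and the median from −0.14 to 0.0096, with the median of all genes at 0.16. That scaling placed the median of all genes at 0.25 in SSA and 0.23 in SATxSSA, and relative to it the 10 genes had medians of −0.33 and −0.37. A scaling factor shifts all genes of a library together, so these relative medians had to come out near those of TMM. They are no separate check of the scaling. The estimates that lay above 0 by library size alone were those of BEIIb (0.043), SSIIa (0.059), AGPL2 (0.099), AGPS2 (0.035) and ISA1 (0.050) in SSA and of AGPL2 (0.077) in SATxSSA.

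The storage protein list had a lower sum in all 3 lines with HaSSA, also in CGSxSSA, where the sum of the 10 starch genes (24351 to 28732 CPM) overlapped with Taipei. It summed to 112257 to 149381 CPM in Taipei and 28853 to 48411 CPM in SSA, with 5 of its 7 identifiers called lower, and to 52080 to 69933 CPM in CGSxSSA (3 called lower) and 52610 to 74534 CPM in SATxSSA (2 called lower). All 7 estimates lay below 0 in SSA and SATxSSA. In CGSxSSA 5 of 7 did, and 1 was higher at an unadjusted p under 0.05 from edgeR, where 5.36% of all genes were. A sum is led by the most abundant genes of the list. The 50 most counted genes took 28.7% to 33.2% of the counts in Taipei, 17.8% to 20.6% in SSA, 21.1% to 24.4% in CGSxSSA and 20.6% to 24.3% in SATxSSA. The TMM factors were 0.893 to 0.994, 1.081 to 1.155, 1.003 to 1.077 and 1.060 to 1.145 in these lines. Leaving these 50 genes out of library size and TMM gave medians of −0.32 in SSA and −0.35 in SATxSSA for the 10 starch genes. Across the 22 libraries the mean log2 level of the 10 genes had a Pearson r of −0.87 with the TMM factor, which enters that level, and of 0.79 with the share of the 50 most counted genes. BEI, GBSSI, BEIIb, AGPS2, PUL and AGPL2 ranked 9 to 40 by mean CPM among the genes tested. That share therefore holds reads of the starch genes themselves, and the 0.79 is in part a correlation with itself. The setting without the 50 genes took such genes out of the scaling but kept them in the test. The part of the storage genes and of RNA composition in the result was not tested beyond these settings.

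**Figure D2:**
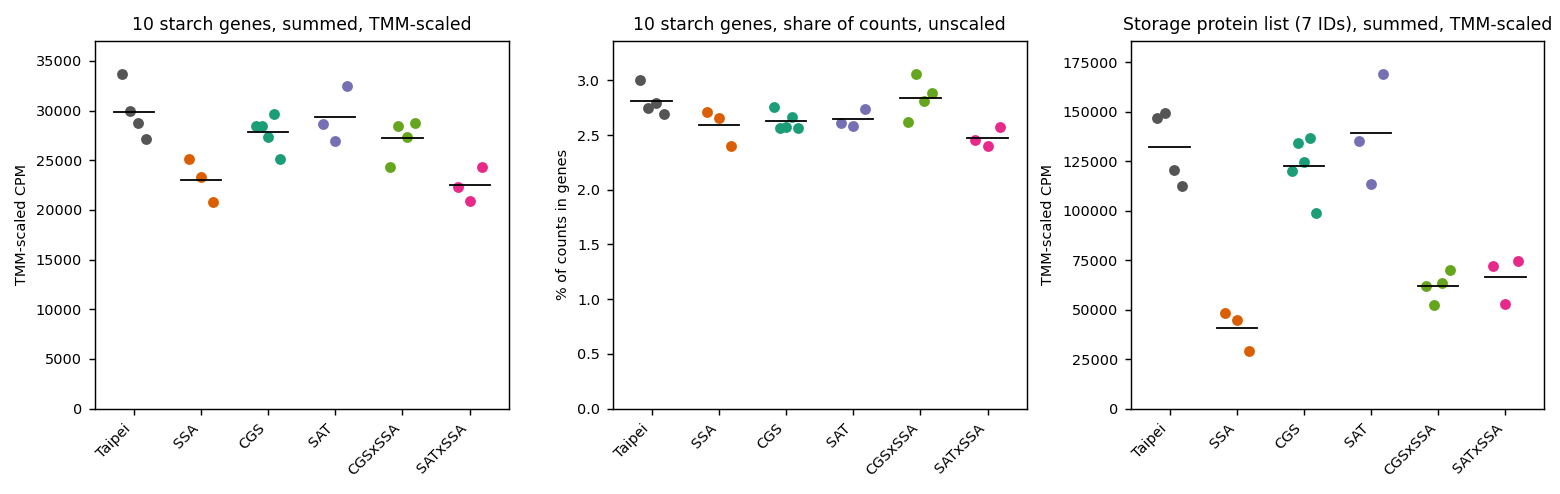
Sum over the 10 starch genes in TMM-scaled CPM (left), their unscaled percent of the counts in genes (middle), and the sum over the 7 identifiers of the storage protein list in TMM-scaled CPM (right), by line, with axes from 0; points are libraries and lines the mean. SSA and SATxSSA sit at 20758 to 25095 CPM below the Taipei libraries on the left, SSA overlaps Taipei in the middle, and all 3 HaSSA lines sit below the other lines on the right.

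SSIIIa, the soluble synthase that extends long amylopectin chains, had the widest range of the 10 genes, from 800.1 CPM in SATxSSA replicate 2 to 1848 CPM in SAT replicate 3. Its libraries stood at 1305, 1497, 1288 and 1117 CPM in Taipei, 1676, 1561 and 1848 CPM in SAT, and 946, 800.1 and 902 CPM in SATxSSA. The SAT libraries were thus all above those of Taipei, and the SATxSSA libraries all below both. SSIIIa fell in SATxSSA against SAT, with a log2 fold change of −0.94 (standard error 0.149, 95% interval −1.25 to −0.63, adjusted p = 0.000702 from edgeR). It was the only one of the 10 genes that edgeR called in that comparison, in which 2.66% of all genes were called lower and 4.25% in either direction. That background of 713 lower calls rested on few libraries and was 91 without SAT replicate 1 (91 to 882 over the fits without 1 library).

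The call of SSIIIa in SATxSSA against SAT held in all 22 fits with 1 library left out, with estimates from −0.996 to −0.87 and adjusted p from 0.000557 to 0.00758, and by library size alone at −0.65 (adjusted p = 0.000763). Only the fits without a SAT (n = 3) or SATxSSA (n = 3) library could move the estimate much. The others left out a library of another line. Against Taipei, SSIIIa had an estimate of 0.38 in SAT (standard error 0.138, adjusted p = 0.157) and of −0.56 in SATxSSA (standard error 0.140, adjusted p = 0.0253), neither of which passed. Its share of the reads of the 10 genes, which no scaling between libraries touches, was 5.69% to 5.86% in SAT, above all other libraries, and 3.72% to 4.25% in SATxSSA, with 3.88% to 4.99% in Taipei. The summed embryo and aleurone list was 6570.0 to 7673 CPM in SAT and 3155 to 4477 CPM in SATxSSA, with 0 of its 5 identifiers called and 5 lower at an unadjusted p under 0.05. Its part in the result was not tested.

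In the other lines SSIIIa stood at 1075, 912 and 858 CPM in SSA, at 1049.6, 1369, 1291, 1436 and 1085 CPM in CGS, and at 1001, 995, 1315 and 1391 CPM in CGSxSSA. All SSA libraries were below those of Taipei (log2 fold change −0.46, standard error 0.140, adjusted p = 0.0571 from edgeR). Those of CGS and CGSxSSA overlapped with Taipei, and in CGSxSSA replicates 1 and 2 stood below replicates 3 and 4. SSIIIa was also called by the joint test of any difference among the 6 lines (adjusted p = 0.000709), as was BEI, while 13.6% of all genes were called.

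BEI, the branching enzyme that acts mainly on longer chains, stood at 10174, 9227, 8855 and 8442 CPM in Taipei, 7235, 6444 and 6159.7 CPM in SSA, and 6824, 5887 and 6939 CPM in SATxSSA. The libraries of SSA and SATxSSA were all below those of Taipei. In CGSxSSA it stood at 7102, 8653, 8473 and 8245 CPM, overlapping with Taipei, CGS (8015 to 9247 CPM) and SAT (8198 to 9594 CPM). The joint test called BEI with an adjusted p of 0.00531. Its estimates against Taipei were −0.47 in SSA (standard error 0.112, 95% interval −0.70 to −0.24, adjusted p = 0.0126 from edgeR) and −0.49 in SATxSSA (standard error 0.112, 95% interval −0.72 to −0.25, adjusted p = 0.0157), which missed the threshold. The joint call was lost without SSA replicate 2 (adjusted p = 0.0153), SSA replicate 3 (0.0162) or SATxSSA replicate 2 (0.0162), and by library size alone (0.107).

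BEIIb, which forms the short branches of amylopectin and whose loss gives the amylose-extender phenotype, varied less between lines. Its line means were 2867 to 3620 CPM, highest in Taipei with 3620 CPM ± 339 (SD, n = 4) and lowest in SATxSSA with 2867 CPM ± 269 (n = 3). Every library of SSA and of SATxSSA was below those of Taipei, and the estimates were −0.21 (adjusted p = 0.402 from edgeR) and −0.34 (adjusted p = 0.139). In CGS and SAT the estimates were −0.0094 (95% interval −0.24 to 0.23) and −0.022 (95% interval −0.29 to 0.25).

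**Figure D3:**
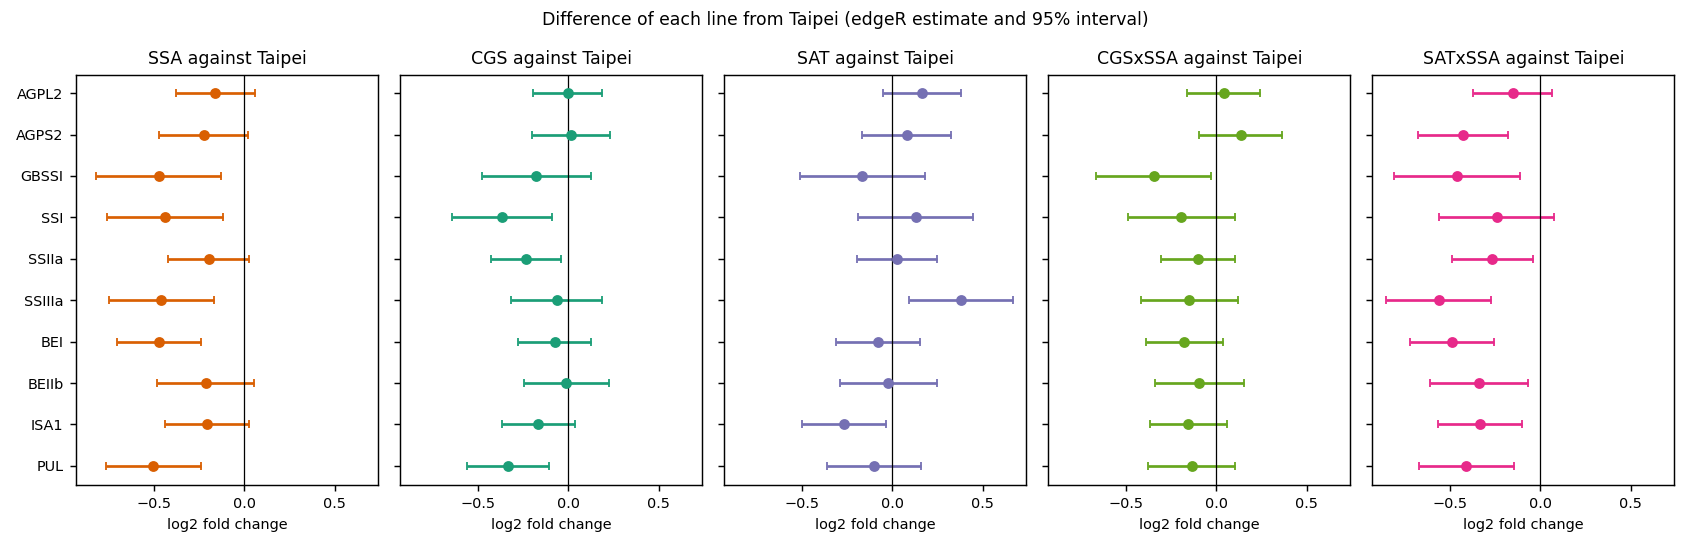
Log2 fold change of each of the 10 genes in each transgenic line against Taipei on the TMM scale, with the 95% interval of the edgeR fit. All 10 points lie below 0 in SSA and SATxSSA, against 5 of 10 in SAT, and none passed at an adjusted p under 0.01; by library size alone 5 of the 10 SSA points and 1 of the SATxSSA points lie above 0.

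PUL, a debranching enzyme also active in starch breakdown, had libraries at 3313, 2922, 2599.7 and 2569 CPM in Taipei and 2265, 2048 and 1726 CPM in SSA. Its CGS libraries, at 2466, 2314, 2159, 2366 and 2018 CPM, were also all below those of Taipei. The estimates were −0.50 in SSA (standard error 0.126, adjusted p = 0.0191 from edgeR) and −0.33 in CGS (standard error 0.109, adjusted p = 0.0593). In CGSxSSA, which carries both transgenes, PUL stood at 2365, 2670.0, 2500.0 and 2855 CPM and overlapped with Taipei (estimate −0.13, adjusted p = 0.785). SATxSSA stood at 2231, 1818 and 2400.1 CPM, all below Taipei (estimate −0.41, adjusted p = 0.0662).

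ISA1, the isoamylase needed for normal amylopectin, had line means from 674 CPM ± 120 (SD, n = 3) in SATxSSA to 847 CPM ± 57.5 (n = 4) in Taipei. It was the only gene of the 10 with every SAT library below every Taipei library, where 8.57% of all genes had this order, at 639, 751 and 723 CPM against 777 to 918 CPM. Its estimate in SAT was −0.27 (standard error 0.112, adjusted p = 0.228 from edgeR) and did not pass. SSIIIa was the only one with every SAT library above (8.07% of all genes).

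AGPS2, the catalytic small subunit of ADP-glucose pyrophosphorylase, stood at 3604, 3164, 2979 and 2579.6 CPM in Taipei, 3195, 3171 and 3413 CPM in SAT, and 2556, 1943 and 2385 CPM in SATxSSA. The SATxSSA libraries were below all of Taipei and all of SAT. The estimate of SATxSSA against SAT was −0.51 (standard error 0.127, 95% interval −0.77 to −0.24, adjusted p = 0.0123 from edgeR), and against Taipei −0.43 (standard error 0.120, adjusted p = 0.0435). In CGSxSSA, at 3123, 3374, 3357 and 3683 CPM, AGPS2 had its highest line mean, with an estimate of 0.14 against Taipei (95% interval −0.09 to 0.36, adjusted p = 0.765).

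AGPL2, the large subunit of ADP-glucose pyrophosphorylase, had the narrowest range over libraries of the 10 genes, a factor of 1.54 between 1683 CPM in SATxSSA replicate 2 and 2595 CPM in SAT replicate 3. Its estimates against Taipei lay between −0.16 in SSA (95% interval −0.38 to 0.06) and 0.16 in SAT (95% interval −0.05 to 0.38), with adjusted p of 0.443 or more from edgeR in the 5 lines. Against SAT, the SATxSSA libraries of AGPL2 were all lower, with an estimate of −0.31 (standard error 0.112, adjusted p = 0.0653). By library size alone that estimate was −0.030, and that of AGPS2 was −0.22 (adjusted p = 0.0996).

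GBSSI, the Waxy gene product that makes amylose, varied most within lines. Its SAT libraries stood at 5474, 3565 and 5965 CPM, its SSA libraries at 4403, 4496 and 3216 CPM and its SATxSSA libraries at 3266, 4220.3 and 4764 CPM, against 5135 to 6532 CPM in Taipei. All libraries of the 3 HaSSA lines were below those of Taipei, with CGSxSSA at 3943 to 5024 CPM, and GBSSI was the only gene of the 10 for which this held in CGSxSSA (3.7% of all genes). The estimates were −0.47, −0.34 and −0.46 in SSA, CGSxSSA and SATxSSA, with standard errors of 0.168, 0.154 and 0.167 and adjusted p of 0.104, 0.428 and 0.120 from edgeR. By library size alone they were −0.22, −0.19 and −0.23.

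SSI and SSIIa, which extend short and intermediate amylopectin chains, overlapped between most lines. SSI had line means from 509 CPM ± 76.4 (SD, n = 3) in SSA to 756 CPM ± 106 (n = 3) in SAT, and both SSA (estimate −0.44, adjusted p = 0.101 from edgeR) and CGS (−0.37, adjusted p = 0.0905) lay below every Taipei library. Taipei replicate 2 stood at 858 CPM, with the nearest Taipei library at 641 CPM. Over the fits without 1 library the estimates ran from −0.56 to −0.32 in SSA (adjusted p up to 0.441) and from −0.42 to −0.24 in CGS (up to 0.328). SSI and PUL were the 2 genes with every CGS library below Taipei, where 4.98% of all genes had this order. The green tissue list was higher in CGS, at 4834 to 5791 CPM against 3748 to 4207 CPM in Taipei, with 2 of 5 called higher and all 5 higher at an unadjusted p under 0.05, and its part in the result was not tested. SSIIa had line means from 491 CPM ± 43.5 (n = 3) in SATxSSA to 600.1 CPM ± 27.0 (n = 3) in SAT, and its libraries overlapped with Taipei in all 5 lines. Its estimate in CGS was −0.23 (95% interval −0.43 to −0.04, adjusted p = 0.124), and −0.11 without Taipei replicate 1 (adjusted p = 0.456).

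HaSSA can be compared with and without the added enzyme gene. SSA against Taipei, CGSxSSA against CGS and SATxSSA against SAT share no library. Each sets a line with HaSSA beside a line without it, in the Taipei, CGS and SAT backgrounds. Both double lines got HaSSA from SSA plants, so these are differences between lines and not separate effects of HaSSA. The medians over the 10 genes were −0.33, 0.027 and −0.31, and 10, 4 and 10 of the estimates lay below 0, where 49.9%, 49.8% and 48% of all genes did. By library size alone the medians were −0.08, 0.17 and −0.03, with 5, 1 and 8 estimates below 0, where the medians of all genes were 0.25, 0.15 and 0.30. Relative to those, the 10 genes had medians of −0.33, 0.028 and −0.32, which a change of scaling leaves nearly as they were by construction.

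In the CGS background no gene of the 10 was called by edgeR or DESeq2, which called 3.87% (2.05% lower and 1.82% higher) and 6.43% of all genes, none had an unadjusted p under 0.05 (13% of all genes lower and 11% higher), and none had every CGSxSSA library on one side of every CGS library (5.83% of all genes below and 4.68% above). The estimates ran from −0.17 for GBSSI (95% interval −0.47 to 0.13) to 0.20 for PUL (95% interval −0.03 to 0.42). In that comparison 5 of the 7 storage protein identifiers were called lower (median −0.96), and 3 of the 5 green tissue identifiers were lower at an unadjusted p under 0.05. In the SAT background 8 of the 10, SSIIIa among them, were lower at an unadjusted p under 0.05 (14.8% of all genes), and 6 had every SATxSSA library below every SAT library (15.6% of all genes). These 6 were BEI, BEIIb, SSIIa, SSIIIa, AGPL2 and AGPS2. DESeq2 called BEI, SSIIIa and AGPS2 lower there, with 5.8% of all genes. Without SATxSSA replicate 1, the library that stood apart, SSIIIa had an estimate of −0.99 against SAT (adjusted p = 0.00326 from edgeR) and was still the only gene called, with 9 of 10 estimates below 0, and against Taipei all 10 stayed below 0 with a median of −0.38. The joint calls of SSIIIa (adjusted p = 0.00132) and BEI (0.00864) also held without it. With all libraries, the highest estimate in that background was that of ISA1 at −0.06 (95% interval −0.31 to 0.18), which by library size alone was 0.22, as that of GBSSI was 0.0030.

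**Figure D4:**
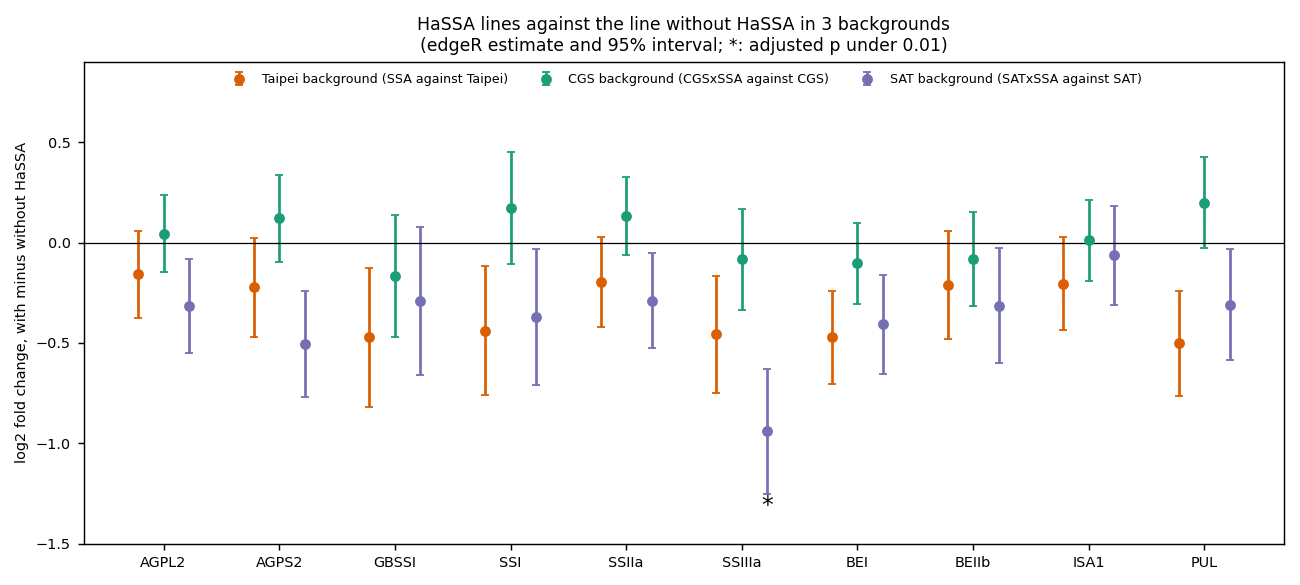
Log2 fold change of each gene between the line with HaSSA and the line without it in the Taipei, CGS and SAT backgrounds on the TMM scale, with the 95% interval of the edgeR fit; the asterisk marks an adjusted p under 0.01. The points of the CGS background lie between −0.17 and 0.20, SSIIIa in the SAT background lies at −0.94, and by library size alone 5 of 10 points of the Taipei background, 9 of the CGS background and 2 of the SAT background lie above 0.

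Whether these line differences varied between the backgrounds was tested as an interaction. With AtD-CGS minus without it, all 10 estimates were above 0, with a median of 0.34 and a range from 0.13 for BEIIb to 0.70 for PUL, while 51.5% of all genes were below 0. No gene passed with edgeR (0.38% of all genes did), 5 were higher at an unadjusted p under 0.05 (7% of all genes higher and 8.21% lower), and DESeq2 called PUL, with 0.47% of all genes called higher. PUL had a standard error of 0.167, a 95% interval of 0.35 to 1.05 and an adjusted p of 0.0392, with a range of 0.0295 to 0.173 over the fits without 1 library. By library size alone all 10 estimates were still above 0, with a median of 0.23 and an adjusted p of 0.0298 for PUL, where the median of all genes was −0.12. The interaction uses the same SSA and Taipei libraries as the comparison above, so its direction is not separate evidence. In the same interaction the storage protein list had a median of 0.71, with 1 of 7 estimates below 0. The embryo and aleurone list had 0.64 (0 of 5 below 0) and the green tissue list −0.39 (5 of 5). The list of other starch genes had 0.026 (9 of 20). The part of these lists in the result was not tested.

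With EcSAT minus without it, the median was −0.015 and 5 of the 10 estimates lay on each side of 0. No gene passed with edgeR, which called 0.25% of all genes, or with DESeq2 (0.869%), and SSIIIa had the largest estimate, −0.48 (standard error 0.202, 95% interval −0.90 to −0.06, unadjusted p = 0.026, adjusted p = 0.303), the only one with an unadjusted p under 0.05, where 6.96% of all genes were lower and 6.26% higher at that p. The fall of SSIIIa in SATxSSA against SAT is therefore not shown to differ from its difference between SSA and Taipei.

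Within a line, the genes varied together from library to library. Of the 45 pairs of the 10 genes, 40 had a positive Pearson r between their log2 deviations from the line mean over the 22 libraries, with a median of 0.44. The closest pairs were BEI and PUL (0.90), AGPS2 and PUL (0.83) and BEI and AGPL2 (0.81), which encode enzymes of different steps. The subunits AGPL2 and AGPS2 had 0.73. These values are a description, since the genes of a library share its scaling factor and its seeds.

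SSI stood apart from this pattern. Its r was −0.57 with BEIIb, −0.30 with GBSSI, −0.27 with ISA1 and −0.20 with SSIIa, which are 4 of the 5 negative values (the other was that of SSIIIa and ISA1, −0.17), and its median r with the other genes was 0.029, against 0.28 to 0.52 for the rest. All 10 genes were below the line mean in Taipei replicate 4, SSA replicate 3 and CGS replicate 5, with mean deviations of −0.13, −0.15 and −0.14 on the log2 scale. All 10 were above it in SSA replicate 1 (0.13). Taipei replicate 4, SSA replicate 3 and CGS replicate 5 had the highest TMM factors of their lines, 0.994, 1.155 and 1.019. SSA replicate 1 had the lowest of its line, 1.081. The TMM factor enters the level, and its part in these deviations was not tested.

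**Figure D5:**
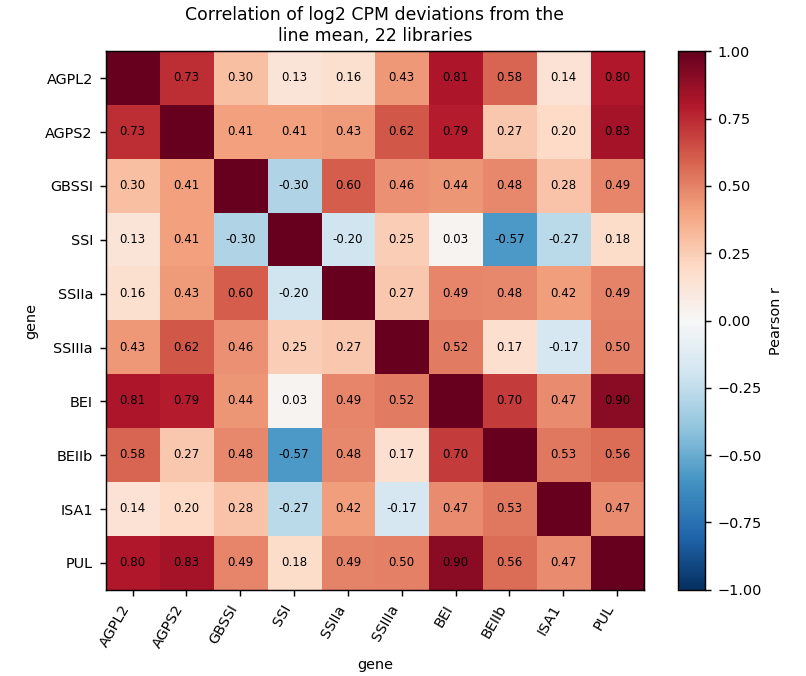
Pearson r between the genes' deviations of log2 CPM from the line mean over 22 libraries, for all pairs of the 10 genes (rows and columns are genes, colour from −1 to 1). BEI, PUL, AGPL2 and AGPS2 form the block of highest values, 0.73 to 0.90, and SSI has the lowest values, down to −0.57 with BEIIb.

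The make-up of the 10 transcripts was also compared, as a description. As a share of the reads of the 10 genes, which depends on gene length, BEI took 28.7% to 31.3% by line mean and GBSSI 16.2% to 18.7%. AGPL2 had its lowest line mean in Taipei, 7.16% ± 0.371 (SD, n = 4), and all libraries of SSA (8.07% to 8.55%), SAT (7.99% to 8.53%) and SATxSSA (8.04% to 9.47%) were above those of Taipei (6.93% to 7.71%). AGPS2 was at 12.5% ± 0.458 (n = 4) in CGSxSSA, with all libraries at 11.9% or more, above those of Taipei (9.51% to 10.7%), as were those of SSA (11.2% to 11.6%). BEIIb and SSIIa were also above Taipei in all SSA libraries. Other shares went the other way. All SSA libraries lay below Taipei for BEI (27.6% to 29.7% against 30.2% to 31.1%) and PUL (8.317% to 9.025% against 9.031% to 9.838%). So did all CGS libraries for PUL (7.89% to 8.68%) and all CGSxSSA libraries for GBSSI (15.3% to 17.5% against 17.8% to 19.4%). The shares of a library add up to a fixed total, so a rise in some goes with a fall in others. These shares were not tested.

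Other starch genes were followed as a list. A list of 20 identifiers for further starch synthesis, phosphorylase, transport and turnover genes was tested in full, and in SSA and SATxSSA its medians were −0.08 and −0.09, with 14 of 20 estimates below 0 in each (49.9% and 49.5% of all genes). Against Taipei, edgeR called 0 of the 20 in SSA, SAT, CGSxSSA and SATxSSA and 1 lower in CGS. At an unadjusted p under 0.05, 5 were lower (10.8% of all genes) and 5 higher (13.3%) in CGS. In SSA, SAT, CGSxSSA and SATxSSA, 2, 4, 1 and 4 were lower, where 9.02%, 8.17%, 4.7% and 10.6% of all genes were, and 0, 1, 1 and 0 were higher (10.4%, 8.37%, 5.36% and 10.1%). The joint test called 3 of the 20, against 13.6% of all genes. The list summed to 12140 to 13694 CPM in Taipei and 12079 to 13702 CPM in SSA, so the 2 lines overlapped.

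Outside these lists, the gene whose log2 CPM over the 22 libraries was most like the mean profile of the 10 was Os10g0539600, with a Pearson r of 0.94 among 3490 genes of at least 50 mean CPM and a mean level of 3150.2 CPM. The next was Os10g0501900 with 0.89 and 595 CPM. They and the following 3 genes (r of 0.88 each) are in none of the lists, and the values are a description over libraries that share their lines.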

How the data were processed

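Strand-specific single-end libraries were mapped by the authors with STAR 2.7.1a to IRGSP-1.0. What they deposited, per the labels and methods, are raw read counts of each gene, without strand and for either strand, from reads with 1 place in the genome. The anti-strand counts, as in the authors' own tests, were used. Near-identical copies could lose reads.

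TMM, filterByExpr and robust quasi-likelihood tests of edgeR 4.0.16 (R 4.3.3) were run in 1 model of 22 libraries, with line as its sole term. Two-sided p-values were adjusted over 26821 genes (Benjamini-Hochberg, threshold 0.01). They judge a difference between lines against the spread between plants of a line. In CGSxSSA and SATxSSA that spread also holds the difference between the 2 segregants. It holds no spread between insertions of a transgene. A standard error is the estimate divided by the root of F. The scripts were tested on simulated data. Libraries of a line differed by at least 4.62 in chi-square per degree of freedom, more than counting error gives, so none was the same library counted again. The lowest value was that of CGS replicates 2 and 4, with 9.999 or more in the other pairs. This check cannot tell whether libraries share a plant. That each came from its own plant is the paper's statement.

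The 10 genes, the lists and the tests were chosen with earlier results of these data known. Named genes are the 10 and the 2 most similar in profile. The planned naming of other starch genes by level per coding length was not made, because no annotation of the identifiers was used here. Alternatives were DESeq2 1.42.0, RLE, library size alone, the 50 most counted genes left out, no filter, unstranded counts, a threshold of 0.05, a replicate block, only the lines compared, and each library left out.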

Additional observations from a re-analysis of the deposited data

Results flagged for a closer look

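In 3 of the 30 groups of 4 or 5 libraries, 1 library was far from the others of its line by Dixon's criterion at 95%, which flags about 1 in 20 groups by chance. SSI in Taipei replicate 2 stood at 858 CPM, with the nearest Taipei library at 641 CPM, a gap of 0.953 of the range. SSIIa in CGS replicate 5 stood at 454 CPM, with the nearest at 502 CPM (0.711 of the range), in a library where all 10 genes were below the line mean. ISA1 in CGS replicate 1 stood at 898 CPM, with the nearest at 756 CPM (0.71 of the range). The last 2 gaps were barely past the critical value of 0.71. No interaction passed with edgeR for any of the 10 genes, while DESeq2 called that of PUL with AtD-CGS.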

How the results depend on the processing

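Of 3090 values of single genes under the alternatives, 3056 kept their side of the threshold, 29 newly passed and 5 no longer passed, and no called direction turned. Most of these values are from fits without 1 library. Those were run for every comparison, also where that library was in none of its lines and could hardly move the value. The count called lower in SSA was 0 and became 2 with DESeq2 and 2 at a threshold of 0.05. In SATxSSA it was 0 and became 3 and 3, in SATxSSA against SAT it was 1 and became 3 and 3, and the interaction with AtD-CGS went from 0 higher to 1 and 1. The joint test called 2 of the 10 and 5 with DESeq2, 5 at 0.05 and 1 with the replicate block. Leaving out 1 library gave 1 to 2 genes in SATxSSA against SAT (AGPS2 passed without Taipei replicate 1, adjusted p = 0.00996, or CGS replicate 5, 0.00969) and 1 to 3 in the joint test (AGPS2 passed without Taipei replicate 1, Taipei replicate 4 or CGS replicate 5). Without SATxSSA replicate 1 the counts of members called were those of the full fit.

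The 24 pairs of equally numbered libraries had correlations of deviations between −0.23 and 0.31, over 0.1 in 2, so the samples share only a number. The replicate block lowered the joint count over all genes from 3641 to 2190 and took BEI out of the joint calls (adjusted p = 0.0208).

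Library size alone changed the sign of 16 uncalled values and the split of all calls, from 490 higher and 169 lower to 2933 and 66 in SSA, from 627 and 364 to 485 and 193 in CGS, from 214 and 77 to 342 and 35 in CGSxSSA, from 209 and 117 to 1470 and 74 in SATxSSA, from 488 and 550 to 1021 and 150 in CGSxSSA against CGS, from 427 and 713 to 4235 and 384 in SATxSSA against SAT, and from 32 and 70 to 20 and 80 in the interaction with AtD-CGS. The joint count over all genes was 6746 with DESeq2, 7720 at 0.05 and 7804 by library size alone. Unstranded counting moved 54 of 60 line levels by more than their SD. The causes were not tested.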

Other observations

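The unstranded counts held very different shares of the reads that the 2 strand columns held for the 10 genes. With the reads of the 22 libraries summed, the share was 27.6% for BEIIb, 42.8% for AGPS2, 47.6% for SSIIa, 50.8% for BEI, 69.6% for SSIIIa and 76.8% for GBSSI, and 100% for SSI, AGPL2, ISA1 and PUL. The opposite strand held at most 0.173% of the summed reads of any of these genes. The medians of the 10 fold changes from unstranded counts were −0.34 in SSA and −0.37 in SATxSSA against Taipei, beside −0.33 and −0.37 from the strand used. The cause was not tested.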
